A study of Mus musculus with 6 samples.

Results

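Lymphatic endothelial cells were studied in dissociated mouse livers by single-cell RNA sequencing. A cell barcode was kept when it held at least 300 genes and at most 20% mitochondrial counts. It was then called lymphatic from its raw counts of unique molecular identifiers (UMIs, which mark single captured transcripts). The gate asked for at least 2 UMIs in the sum of the endothelial genes Cdh5, Pecam1, Ptprb and Flt4, at least 1 UMI of Mmrn1, and at least 3 UMIs of Mmrn1 and Ccl21a together. It allowed at most 1 UMI in the sum of the T and B cell genes Cd3d, Cd3e, Cd3g and Cd79a. The cells were thus selected on measured values of these genes, whose levels are descriptions here. The gate held 307 of 42682 filtered cells. A matching gate with no Mmrn1, at most 1 Ccl21a UMI and at least 1 UMI of Cdh5 or Ptprb gave 2519 blood endothelial cells for comparison.

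All 6 mice were Sting fl/fl, kept under specific pathogen-free conditions and on chow until 8 weeks of age. They then received WD-CCl4, a western diet with carbon tetrachloride, for 12 weeks, which produces metabolic dysfunction-associated steatohepatitis (MASH). The 3 knockout mice carried Cdh5-Cre, which places Cre recombinase under the promoter of the endothelial cadherin gene Cdh5, and the 3 control mice were Cre-negative littermates. There was no group on chow alone and none without floxed alleles, and the labels do not say whether the Cre was inducible. Their cell type field reads liver sinusoidal endothelial cells, but no sort of the dissociated livers is stated.

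Lymphatic vessels drain fluid, lipids and leukocytes from tissue, and in the liver they run mainly with the portal tracts. Their endothelium is specified by the homeobox factor PROX1, senses VEGF-C through the receptor VEGFR-3 (Flt4), and secretes CCL21, which draws CCR7-bearing dendritic cells and T cells into the vessel. Blind-ended capillaries take up fluid and are rich in the hyaluronan receptor LYVE1, while collecting vessels carry valves, less LYVE1 and a fuller basement membrane. STING relays the sensing of DNA in the cytosol to interferon and NF-kB target genes.

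The libraries held 55017937 to 73867890 UMIs and the lymphatic sums 351574 to 1344668. Median depth of the lymphatic cells was 7284 to 10334 UMIs per library, with 2777 to 3629 genes, and mitochondrial shares had medians of 1.23% to 1.81%. Pairs of libraries shared 5 to 25 cell barcodes, at most 0.328% of the smaller library, and no lymphatic barcode was shared. Each lymphatic sum is 1 mouse, and cells of a mouse were never treated as replicates. Intervals given for ratios of UMIs cover counting error only.

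The name of the gated cells was checked on Prox1, Reln and Lyve1, since Mmrn1 and Ccl21a are fixed by the gate. PROX1 is the master factor of lymphatic identity, and Prox1 (chr1:190118035-190170714, GRCm38) had a UMI in 93.3% ± 4.97 (SD, n = 3) of lymphatic cells of the control livers and 95.2% ± 2.89 of those of the knockout livers. The corresponding shares were 8.76% and 7.41% in blood endothelial cells, at similar depth, and 1.33% and 1.28% in T cells, whose median depth was 5108 to 6229 UMIs. Reln, the secreted glycoprotein reelin, was found in 84.7% and 98.4% of lymphatic cells against 1.55% and 0.814% of blood endothelial cells. Mean levels over the 6 lymphatic sums, in CPM (counts-per-million, scaled by TMM library size), were 2773 for the matrix protein gene Mmrn1, 6531 for Ccl21a, 589 for Prox1, 1108 for Reln and 875 for Lyve1. In the blood endothelial sums the last 3 stood at 18.4, 5.46 and 65.1 CPM. Ccl21a has near-identical paralogs, and almost all counts were assigned to the copy at chr4:42772860-42773993, so its value may hold reads of the others.

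Cells at the edge of the gate were few. The 6 cells with exactly 3 UMIs of Mmrn1 and Ccl21a lay just inside, and 33.3% of them had Prox1 and 66.7% had Reln. The 8 cells with exactly 2 lay just outside, of which 50.0% had Prox1 and 12.5% had Reln. A further 10 cells failed through 2 T or B cell UMIs, and 90.0% of those carried Prox1.

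Lymphatic cells were unevenly spread over the livers. The control livers gave 49, 134 and 32 cells and the knockout livers 26, 25 and 41, so control 2 alone held 43.6% of them. As a share of gated endothelium they made up 21.4%, 19.2% and 5.66% in the controls and 5.02%, 9.84% and 7.30% in the knockouts. The 2 high values were control 1 and control 2, while control 3 lay within the knockout range. The means were 15.4% ± 8.52 and 7.39% ± 2.41 (SD, n = 3), a difference not past the threshold (exact two-sided permutation test, p = 0.3). Of all filtered cells, the lymphatic share was 0.610%, 1.49% and 0.658% in controls and 0.361%, 0.384% and 0.581% in knockouts. Here the groups did not overlap, and the exact permutation p of 0.1 is the smallest that 3 against 3 mice can give. Without control 2 the difference of the means shrank from -0.476 to -0.192 percentage points (exact permutation test, p = 0.2). The groups still did not overlap, and fewer mice allow fewer arrangements, so this p cannot be set against that of all mice. Dissociation sets how many vessels of a kind release cells, so such shares are of recovered cells and not of the tissue.

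**Figure D1:**
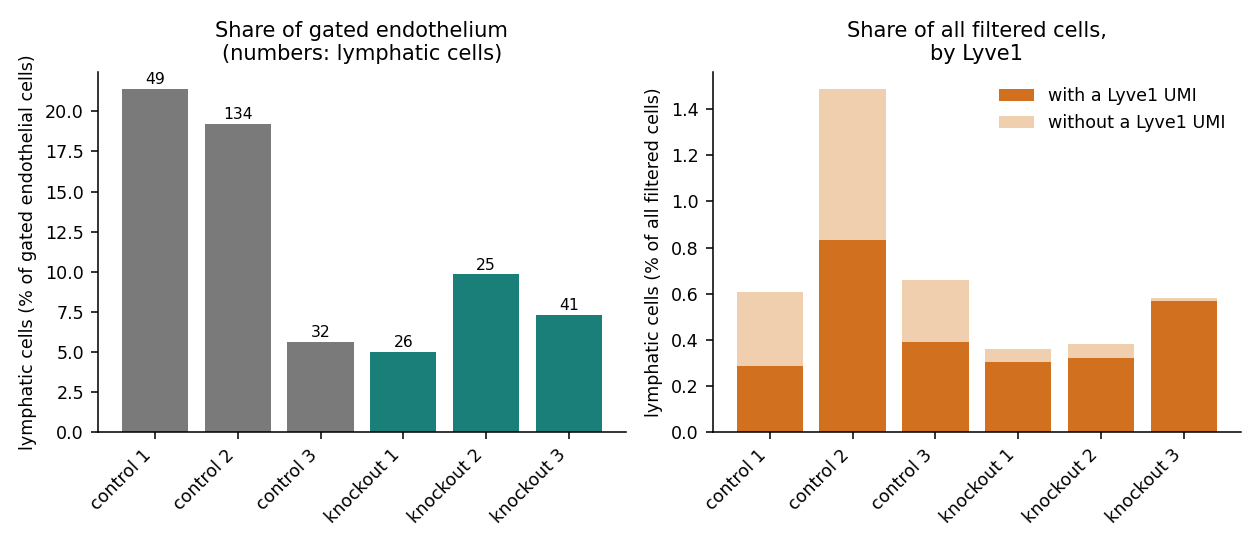
Lymphatic cells per library. Left, bars give their share of gated endothelial cells (%), with the number of lymphatic cells above each bar: control 1 and control 2 stand at 21.4% and 19.2% and the other libraries at 5.02% to 9.84%. Right, bars give their share of all filtered cells (%), stacked by whether a cell had a Lyve1 UMI: the light segments without Lyve1 are tall in the 3 controls and thin in the 3 knockouts.

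The first comparison asked how lymphatic cells differ from blood endothelium of the same livers. Of 11839 genes tested with edgeR's quasi-likelihood test on sums per mouse, with the mouse as a block, 1895 (16.0%) were higher and 2091 (17.7%) lower in lymphatic cells at a Benjamini-Hochberg adjusted p under 0.05, 33.7% in either direction. The median over all genes was -0.05 on the log2 scale. Counts of list members below are to be read against these shares. Levels are in CPM, means over 6 mice, and differences are lymphatic over blood on the log2 scale. The genes that gate or mark the cells were left out of the calls described.

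Transcription factors of lymphatic identity were mostly higher. Of 15 tested, 12 were higher and 2 lower, with a median difference of 0.95. Tbx1, a T-box factor needed for lymphatic growth, stood at 158 to 230 CPM in the 6 lymphatic sums and at 0 to 1.40 in the blood endothelial sums. Its log2 difference was 8.32 (SE 0.285, adjusted p = 1.38e-09). The homeobox gene Hoxd8 differed by 5.58, Foxc2, the factor of lymphatic valves, by 3.45, and Nfatc1, its calcineurin-dependent partner, by 2.15. Smaller differences were seen for Gata2, which acts upstream of Prox1 in valves (1.02), for the flow-responsive factor Klf4 (0.96) and for Foxc1 (0.95). Meis1 was lower (-2.30). All 6 mice had Tbx1, Hoxd8, Foxc2, Nfatc1, Gata2 and Klf4 on the high side, and 5 of 6 had Foxc1.

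Receptors separated the vessel types in both directions. Of 24 receptor and surface genes tested, 13 were higher and 4 lower, with a median of 0.58. Podoplanin (Pdpn), the lymphatic mucin that binds platelet CLEC-2, averaged 223 CPM against 24.3 and differed by 3.24. Nrp2, the co-receptor of VEGF-C, averaged 875 against 384 (1.19), while Nrp1, the co-receptor of VEGF-A, averaged 5.36 against 345 (-5.64). VEGF receptors split likewise. Kdr (VEGFR-2) was higher by 1.05, and Flt1 (VEGFR-1), which traps VEGF-A, was lower by 5.20. The adrenomedullin decoy receptor Ackr3 was higher by 2.43 and the flow-sensing channel Piezo1 by 1.31. Scavenger receptors shared with sinusoids were not lower than in the whole blood endothelial gate: Stab1 differed by 1.23 and Stab2 by 1.93, the latter at an adjusted p of 0.042. A Stab2 UMI was found in means of 12.9% and 20.4% of blood endothelial cells of control and knockout livers. Most cells of that gate thus showed no Stab2, and a comparison with sinusoidal cells alone was not made.

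Ligands showed the same division. Angpt2, the TIE2 ligand needed for lymphatic remodelling, averaged 92.4 CPM against 4.99 (4.25). Il7, the lymphocyte survival cytokine that lymphatics supply, averaged 84.7 against 1.72 (5.59). Its 6 lymphatic values ran from 58.3 to 146 and its blood values from 0.466 to 3.13, with no overlap. Vegfc, the ligand of VEGFR-3, was instead a transcript of the blood endothelial gate, at 215 CPM against 7.03 (-4.78). Among growth factors and their processing enzymes, 5 of 13 were higher and 3 lower. Among chemokines and cytokines, 6 of 18 went each way. The interferon-induced ligands of CXCR3 were lower: Cxcl10 averaged 28.1 against 461 (-3.93), and Cxcl9 had 0 UMIs in the lymphatic cells and 3472 in the blood endothelial cells. Against a floor of 3 UMIs over all lymphatic sums, Cxcl9 was at least 159-fold lower.

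Genes of leukocyte traffic went both ways, with 8 of 22 higher and 10 lower. Selp, the selectin that tethers leukocytes to venules, averaged 117 CPM against 2277 (-4.33), and the integrin ligand Vcam1 averaged 51.3 against 369 (-2.93). The atypical chemokine receptor Ackr1 of venules had 0 lymphatic UMIs, while Ackr2, which scavenges inflammatory chemokines on lymphatics, was higher by 1.94. Ackr4, which scavenges CCL21, was higher by 2.75 (adjusted p = 0.0306), in 4 of 6 mice.

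Both capillary and collecting-vessel transcripts were present. Of 23 valve and collecting-vessel genes, 14 were higher and 5 lower, with a median of 1.02. The guidance ligand Sema3a, which shapes valves, averaged 157 CPM against 4.92 (5.05), the junction protein gene Cldn11 differed by 3.79 and the planar polarity cadherin Celsr1 by 3.06. Of 13 capillary-type genes, 9 were higher and none lower, with a median of 1.17. They included Lcn2 (4.61), Foxp2 (4.51) and Ptx3, a pentraxin with 383 lymphatic and 3 blood endothelial UMIs.

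Junction and matrix genes also changed. Of 17 junction genes, 8 were higher and 4 lower: Cldn5, the main endothelial claudin, averaged 1237 CPM against 212 (2.57), and the polarity gene Pard3 differed by 1.90, while Esam differed by -2.35. Jam2, a junctional adhesion molecule, had 0 UMIs in the lymphatic cells and 10671 in the blood endothelial cells, which puts it at least 489-fold lower. Of 23 basement membrane and matrix genes, 12 were higher and 6 lower. The laminin chain Lamb1 differed by 4.33, the nidogen Nid2 by 3.24 and the protease inhibitor Timp2 by 2.47, and the proteoglycan Bgn by -1.60.

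Outside the gate genes and markers, Apba2, a neuronal-type adaptor protein, had 519 UMIs in lymphatic cells and 0 in blood endothelial cells, and was at least 1257-fold higher against a floor of 3 UMIs. The polarity gene Pard6g averaged 483 ± 60.9 CPM (SD, n = 6) against 4.36 ± 0.622, a log2 difference of 6.77 (SE 0.124, adjusted p = 5.56e-13). The matricellular protein Postn differed by 6.78, the Notch modulator Dtx1 by 6.63, the convertase Pcsk6 by 5.97, the sodium channel Scn3a by 5.89, the zinc finger gene Glis1 by 5.86 and the heparin-binding factor Ptn by 5.78. Rgs16, a G-protein brake, averaged 602 CPM against 13.7 (5.55), and Thy1 averaged 301 against 7.73 (5.43). All of these genes were higher in 6 of 6 mice.

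Transcripts of other vessel types marked the blood gate. Of 21 blood endothelial genes, 12 were lower and 6 higher, with a median of -2.02, and of 19 sinusoidal genes 15 were lower and 2 higher, with a median of -3.54. The arterial semaphorin Sema3g and the capillary gene Ly6c1 had 0 lymphatic UMIs, which puts them at least 88.8-fold and 182-fold lower. The sinusoidal lectin Clec4g and the adhesion gene Adam23 also had 0, at least 155-fold and 99.4-fold lower. The stem-cell and arterial factor Mecom had 2 lymphatic UMIs against 21750, a pooled ratio of 1496 (95% interval 414 to 12356). The ratios were 543 (97.3 to 21439) for the phosphodiesterase Pde1c, 404 (72.5 to 15966) for Oit3, 239 (81.8 to 1160) for the Fc receptor Fcgr2b and 204 (56.5 to 1687) for the arterial connexin Gja5. Bmp2, Gata4 and Ntn4, of sinusoidal endothelium, differed by -7.37, -5.58 and -3.30. Among blood endothelial genes, Cav1 (1.88) and Plvap (1.28) went the other way.

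**Figure D2:**
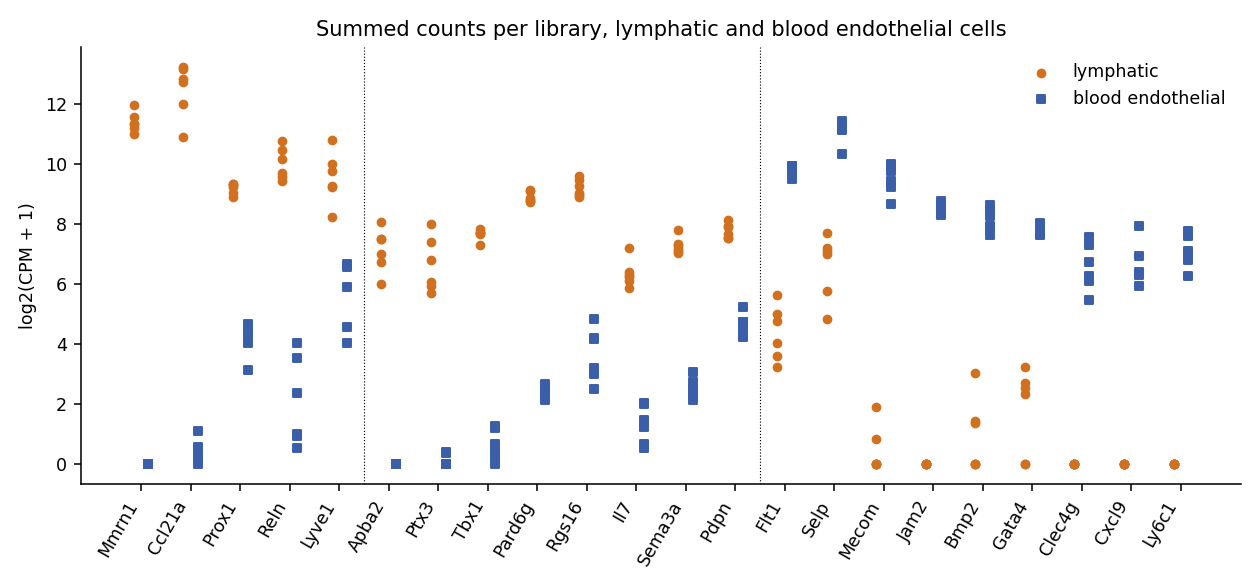
Levels of named genes as log2(CPM + 1), 1 circle per mouse for lymphatic cells and 1 square per mouse for blood endothelial cells. From left to right stand the markers, genes higher in lymphatic cells and genes lower in them. Apba2 is at 0 in every blood endothelial sum, and Jam2, Clec4g, Cxcl9 and Ly6c1 are at 0 in every lymphatic sum.

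Immune pathway genes other than MHC class I were lower in lymphatic cells more often than higher. The blood endothelial gate held more leukocyte signal. The leukocyte gene Ptprc was found in 13.6% to 23.6% of its cells per library and in 2.44% to 17.9% of lymphatic cells. Its 12 myeloid markers came to 200 to 1749 CPM without TMM scaling, against 32.6 to 387 in the lymphatic sums. The part of such cells in the differences below was not tested. Of 37 interferon-stimulated genes tested, 15 were lower and 4 higher, with a median of -0.61. Oasl2 averaged 7.99 CPM against 72.5, and Ifi27l2a averaged 234 against 50.2 (2.27). Of 15 STING pathway genes, 5 were lower, among them the DNA sensor Cgas (-1.07) and Ifi203 (-3.01), and 1 was higher. Sting1 itself averaged 24.2 CPM against 20.9 and did not pass the test. Of 30 NF-kB and inflammatory genes, 13 were lower and 6 higher. The interleukin-1 receptor Il1r1 averaged 30.7 CPM against 634 (-4.35), and Cebpb averaged 1040 against 251 (2.03). Of 13 genes of MHC class II and costimulation, 8 were lower and 1 higher, with a median of -1.60. H2-Aa averaged 89.3 CPM against 319 (-1.89, adjusted p = 0.00399). Of 22 MHC class I genes, 5 were higher and 2 lower. Fatty acid genes had 5 of 22 higher and 3 lower, among them Pparg (1.70) and Apold1 (1.68). Notch genes had 2 of 11 higher, the targets Hey1 (2.42) and Hes1 (1.77), and 4 lower.

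The lymphatic cells were not uniform in Lyve1. A Lyve1 UMI was found in 46.9%, 56.0% and 59.4% of lymphatic cells in the 3 controls. In the 3 knockouts it was found in 84.6%, 84.0% and 97.6%. The groups did not overlap. Lyve1 was in 12.7% and 24.1% of blood endothelial cells and in 0.0294% and 0.0548% of T cells. With every cell thinned to 1500 UMIs, which left out 5 shallower lymphatic cells, all of control 2, the lymphatic shares were 28.6%, 34.9% and 40.6% in controls and 73.1%, 48.0% and 58.5% in knockouts. Because the split was made after these shares were seen and uses the cells' own values, what follows is a description without a test.

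In the control livers, 117 lymphatic cells had Lyve1 and 98 had none. Of identity genes outside the gate, Prox1 was found in 90.6% of cells with Lyve1 and 91.8% of cells without, and Pdpn in 70.1% and 65.3%. Of 14 capillary-type genes, Lyve1 and the gate genes left out, 4 were lower without Lyve1 in all 3 controls, 2 were higher and 8 were neither. Those lower were Reln, at 1048 CPM with Lyve1 and 278 without, the water channel Aqp1, at 1078 and 368, Ptx3, at 146 and 60.8, and Nrp2, at 853 and 586. Those higher were Foxp2, at 302 CPM with Lyve1 and 580 without, and Lcn2, at 554 and 731. The gate gene Ccl21a averaged 5300 and 2267 CPM. Outside that list, the mechanosensitive channel Piezo2 averaged 104 and 7.69 CPM, and the sodium channel Scn3a 137 and 30.9.

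Other transcripts were higher in the cells without Lyve1. The cadherin gene Cdh13 stood at 456, 359 and 368 CPM in the cells without Lyve1 of the 3 controls, and at 147, 104 and 76.2 in those with it. Each control thus had more Cdh13 in its cells without Lyve1, and the same held for Nts, Nsg1, Clca3a1, Procr, Dll4, Foxc1 and Ackr4. The neuropeptide precursor Nts averaged 1388 and 506 CPM, the endosomal protein gene Nsg1 263 and 77.8, Clca3a1 316 and 80.9, the protein C receptor gene Procr 159 and 47.9, and the Notch ligand Dll4 122 and 37.5. The transcription factor Foxc1 averaged 161 and 69.3 CPM. Ackr4, the CCL21 scavenger known on collecting vessels, had a UMI in 28.6% of control cells without Lyve1 and 1.71% of those with it. Of 23 valve and collecting-vessel genes, 6 were higher without Lyve1 in all 3 controls, 3 were lower and 14 were neither. Some lists of other themes gave counts of like size. Of 23 fatty acid genes, 6 were higher and 2 lower, and of 24 matrix genes 6 were higher and 8 lower. No share over all genes stands beside these counts or the capillary-type ones, so they do not set the vessel-type lists apart. Among the valve and collecting-vessel genes, Gata2 averaged 206 CPM without Lyve1 and 78.5 with it, and Cldn11 89.9 and 14.2. The adhesion receptor Adgrg3 went the other way, at 42.8 and 143 CPM, as did Clec14a, at 31.0 and 73.0, and Plxnd1, at 78.1 and 132. Foxc2 stood higher in the cells without Lyve1 in control 1 and control 2 and lower in control 3, with means of 95.5 and 60.3 CPM. Leukocyte transcripts lay on the other side: Ptprc, which marks leukocytes, was found in 21.4% of control cells with Lyve1 and 5.10% of those without, and the macrophage-expressed Zeb2 averaged 88.6 and 3.52 CPM. The Ptprc shares pool the 3 controls, and control 2 held 24 lymphatic cells with Ptprc against 4 in control 1 and 2 in control 3. Zeb2 was found in 3, 13 and 2 control cells, and 1 cell held 33 of its 36 UMIs in control 3.

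Cells without Lyve1 were scarce in the knockout libraries. There were 26, 59 and 13 in the controls and 4, 4 and 1 in the knockouts. Of all filtered cells they made up 0.324%, 0.655% and 0.267% in controls and 0.0555%, 0.0615% and 0.0142% in knockouts, so that every control lay above every knockout and the ratio of the means was 9.50. Cells with Lyve1 made up 0.286%, 0.832% and 0.391% in controls and 0.305%, 0.323% and 0.567% in knockouts, which overlapped. Median depths of the classes overlapped in the controls, at 11123, 6934 and 10027 UMIs with Lyve1 and 9462, 8044 and 7208 without. In the knockouts they were 10334, 10203 and 10390.5 with Lyve1 and 8557, 9260 and 9658 without. The cells without Lyve1 were thus shallower in every library but control 2, and a shallower cell more easily lacks a UMI. Of the 9 knockout cells without Lyve1, 44.4% had a Ptprc UMI.

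**Figure D3:**
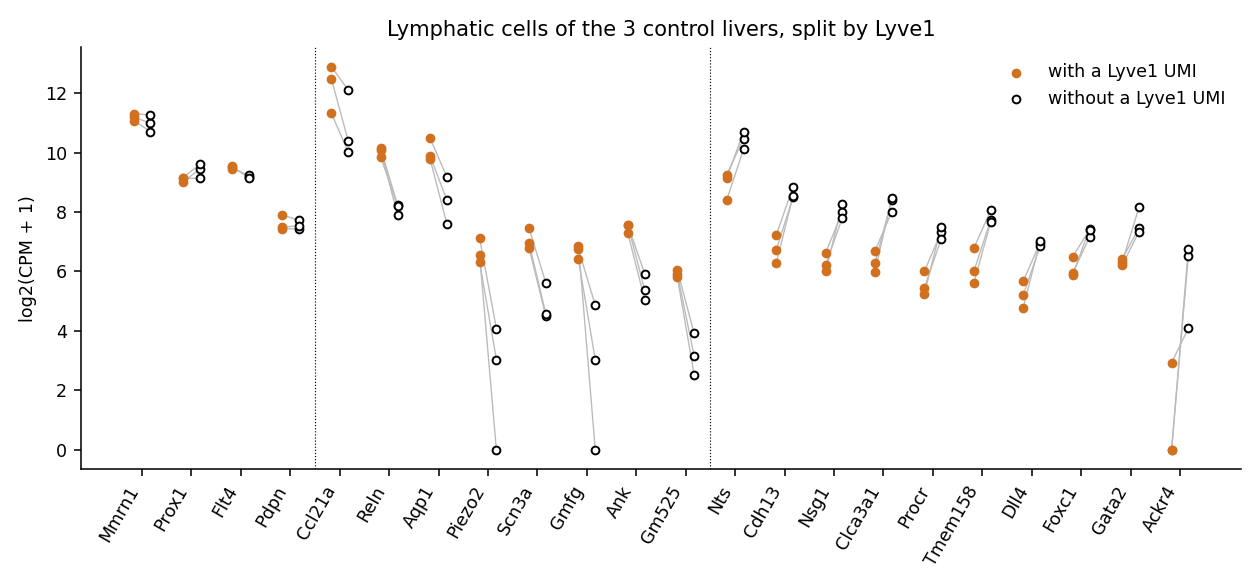
Lymphatic cells of the 3 control livers, split by whether a cell had a Lyve1 UMI, as log2(CPM + 1) of the summed counts. Each line joins the filled and the open point of 1 liver. Mmrn1, Prox1, Flt4 and Pdpn (left) are alike in both classes, Ccl21a to Gm525 (middle) are lower without Lyve1, and Nts to Ackr4 (right) are higher without it.

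The second comparison asked what differed between knockout and control livers within the lymphatic cells. The targeted gene was checked on its transcript. Sting1 stood at 23.03, 37.8 and 15.4 CPM in controls and at 20.7, 37.1 and 14.1 in knockouts, on 71 and 28 UMIs in all. The groups overlapped, and the log2 difference was -0.28 (SE 0.418, adjusted p = 0.882). The 3′ tag counted here need not lie in the floxed part of the gene, so this value neither shows nor denies recombination. Cdh5, whose promoter drives the Cre, averaged 615 CPM in lymphatic cells and 514 in blood endothelial cells.

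Of 6695 genes tested, 11 (0.164%) were higher and 28 (0.418%) lower in the knockouts, and for all 39 (0.583%) the 3 knockouts lay apart from the 3 controls, as they did for 15.6% of all genes. At an unadjusted p under 0.05, 10.9% of genes differed. The calls were sensitive to the library and to the cells. Leaving out 1 library gave 7 calls without knockout 1, 9 without knockout 3, 10 without control 2 and 70 without control 3, and H2-Aa alone was called in all 6 such runs. Gating on Prox1 with no Alb UMI, in place of Mmrn1 and Ccl21a, gave 425 cells and 0 calls (562 genes at an unadjusted p under 0.05). Of the 37 called genes that could be tested, 34 had the same direction. That gate also took in cells of the blood endothelial gate. In knockout 1 it held 51 cells in place of 26, while the blood endothelial cells fell from 492 to 467. In control 3 it held 64 in place of 32, while they fell from 533 to 500. With the DESeq2 Wald test 71 genes were called.

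Genes higher in the knockouts included several of the transcripts that went with Lyve1 in controls. Reln stood at 695, 826 and 809 CPM in controls and at 1821, 1473 and 1202 in knockouts. Each knockout lay above each control, with a log2 difference of 0.95 (SE 0.188, adjusted p = 0.0303). Ank, a pyrophosphate and ATP exporter (chr15:27466677-27594909), stood at 119, 142 and 131 CPM in controls and at 249, 331 and 325 in knockouts (1.21, SE 0.195, adjusted p = 0.0107). The cytochrome P450 gene Cyp4b1 stood at 110, 106 and 113 CPM in controls and 305, 226 and 202 in knockouts (1.15, adjusted p = 0.0168). Its 3 control values were close together and every knockout value was well above them. Gm525, of unstated function, stood at 31.2, 46.4 and 48.8 CPM and at 94.8, 97.1 and 176 (1.59, adjusted p = 0.0147). The actin-binding Ablim3 differed by 1.37, Gmfg of actin branch turnover by 1.09, Plxdc2 by 1.05, and the scaffold gene Dlg1 and the non-coding Gm16083 by 0.94 each. The formin gene Fmn1 differed by 1.87, on 7, 16 and 5 UMIs in controls and 13, 13 and 29 in knockouts. Its highest cell held 8 of the 13 in knockout 1 and 5 of the 13 in knockout 2. For Plxdc2 and Dlg1, the highest cell of knockout 1 for each gene held 44 of the 93 and 131 of the 294 UMIs.

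Among the genes lower in the knockouts, Adamts1, a matrix protease that restrains vessel growth, stood at 1663, 1321 and 1327 CPM in controls and 625, 740 and 610 in knockouts (-1.13, SE 0.180, adjusted p = 0.0107). Trib1, a pseudokinase, stood at 675, 567 and 593 CPM and at 231, 334 and 262 (-1.15). Cdkn1a, the cell-cycle inhibitor p21, stood at 482, 482 and 436 CPM and at 187, 171 and 262 (-1.16, adjusted p = 0.0121). In each of these genes all controls lay well above all knockouts. Cd93, a lectin-like protein of endothelial adhesion, stood at 130, 88.9 and 131 CPM in controls and 11.8, 45.7 and 15.8 in knockouts (-2.28, SE 0.365). Nsg1 stood at 195, 176 and 128 CPM and at 68.1, 65.7 and 80.9 (-1.22, adjusted p = 0.0209). Parm1 stood at 86.7, 60.6 and 35.9 CPM in controls and 5.92, 8.57 and 14.1 in knockouts (-2.60), the latter on 2, 3 and 8 UMIs from 1, 1 and 4 cells. The periplakin gene Ppl differed by -1.95.

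The cytokine gene Lif, of the interleukin-6 family, had 31, 31 and 12 UMIs in the controls and 2, 0 and 1 in the knockouts (adjusted p = 0.0147), from 9, 11 and 4 cells and from 2, 0 and 1. The remaining lower genes were chosen for naming after their values were seen and included the growth factor target Myc (-1.25), the cadherin gene Cdh13 (-1.16), the endoplasmic reticulum chaperone Hspa5 (-0.86), the actin gene Actg1 (-0.97), the filamin gene Flnc (-1.28), the tight-junction gene Lsr (-1.69), Rgcc (-1.57), Sgms2 (-1.69), Ccdc3 (-1.68), Tmem158 (-1.04), Ablim1 (-1.43), Csrnp1 (-0.94) and Itih2 (-1.98).

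**Figure D4:**
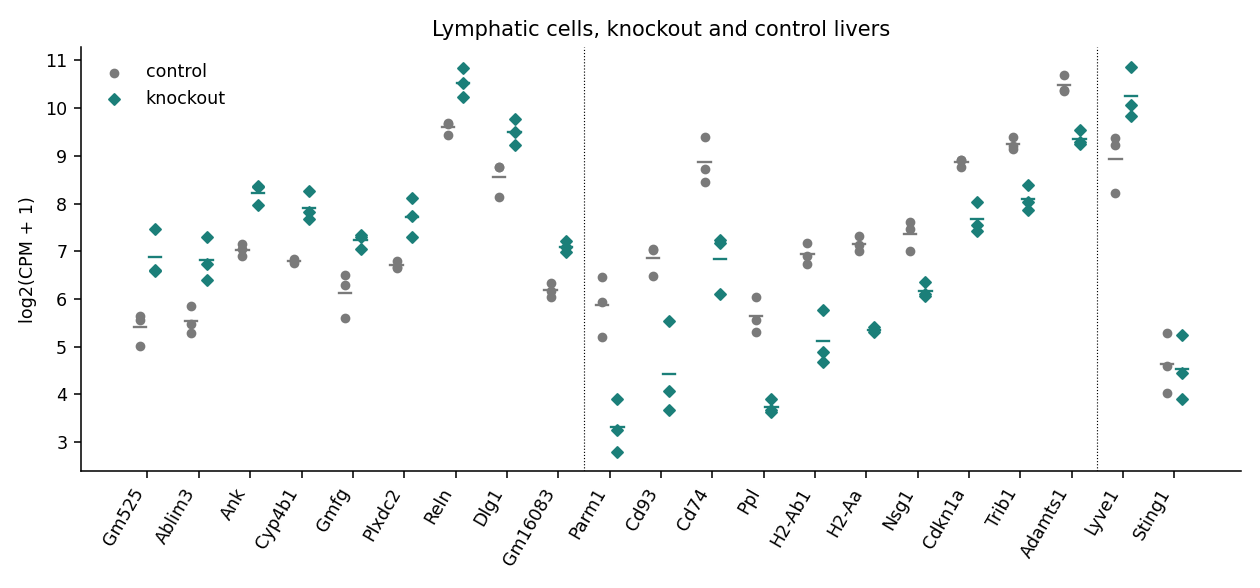
Levels in lymphatic cells as log2(CPM + 1), 1 circle per control liver and 1 diamond per knockout liver, with a dash at each group's mean of these log values. Higher genes stand on the left and lower genes in the middle, and for each of these the groups are apart. On the right, Lyve1 does not pass the test and the Sting1 values of the groups coincide.

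The markers themselves moved in part. Lyve1 stood at 298, 600 and 660 CPM in controls and 1868, 908 and 1069 in knockouts, without overlap, but missed the threshold of the test (1.31, SE 0.360, adjusted p = 0.210). Prox1 stood at 606, 626 and 691 CPM and at 669, 491 and 536, which overlapped. Among the gate genes, given without a test, Ccl21a stood at 1906, 4116 and 7302 CPM in controls and 7545, 9591 and 9918 in knockouts. One cell of knockout 2 held 1960 of its 3359 Ccl21a UMIs. Foxc1 stood at 111, 113 and 123 CPM and at 23.7, 77.1 and 49.2 (adjusted p = 0.0783), and Gata2 at 142, 175 and 108 and at 65.1, 82.8 and 89.7 (adjusted p = 0.129). Angpt2 stood at 79.9, 69.3 and 74.5 CPM and at 118, 109 and 118 (adjusted p = 0.210).

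The share of cells with Lyve1 differed between the groups, so the sums were also made from the 117 control and 83 knockout lymphatic cells that had a Lyve1 UMI. This alternative was added after the Lyve1 shares were seen. It gave 4 calls among 5612 genes, all lower: H2-Aa, Rgcc, Zeb2 and Hamp. Among these cells, Ptprc was found in 25 of 117 of the controls and 2 of 83 of the knockouts, and its part in the calls was not tested. Over all lymphatic cells, the highest cell held 33 of 36 Zeb2 UMIs in control 3, 36 of 83 in control 2 and 11 of 12 in knockout 3. Hamp had 19, 39 and 26 UMIs in the controls, from 6 cells each, and 2, 10 and 1 in the knockouts, from 2, 3 and 1 cells. Rgcc had 7, 9 and 11 UMIs in the knockouts, and 1 cell held 6 of the 7 in knockout 1. Of the 39 genes called before, 34 could be tested, all 34 had the same direction, and H2-Aa and Rgcc passed. Some differences were much smaller among cells with Lyve1: Nsg1 went from -1.22 to -0.34, Cdh13 from -1.16 to -0.36, Tmem158 from -1.04 to -0.22, Cdkn1a from -1.16 to -0.63 and Reln from 0.95 to 0.50. Others kept most of their size: Plxdc2 went from 1.05 to 0.96, Cyp4b1 from 1.15 to 0.92, Egr1 from -0.91 to -0.85, Hspa5 remained at -0.86, and Cd93 went from -2.28 to -1.95. In sums over all lymphatic cells, a change in the level per cell and a change in the mix of cells with and without Lyve1 cannot be told apart.

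Gene lists are described by their counts beside the shares above and the median over all genes of 0.02. Of 27 immediate early and dissociation-linked genes tested, 3 fell and none rose, 25 had a negative difference, and the median was -0.52. Egr1, an immediate early zinc finger factor, stood at 3871, 3241 and 4054 CPM in controls and 1578, 2199 and 2148 in knockouts (-0.91, adjusted p = 0.0345). The orphan nuclear receptor Nr4a1 stood at 236, 379 and 149 CPM and at 68.1, 82.8 and 94.9 (-1.65, adjusted p = 0.0303), and Fosl2, an AP-1 subunit, differed by -1.01. Fos and Jun overlapped between the groups. At an unadjusted p under 0.05, 15 of the 27 were lower, where 5.84% of all genes were. In blood endothelial cells of the same livers, none of 30 passed, 28 had a negative difference and the median was -0.38. These genes are known to respond to tissue dissociation, and its part in the result was not tested.

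Lists tied to STING signalling gave few calls. Of 24 interferon-stimulated genes, none passed the test, 22 had a negative difference and the median was -0.29. Isg15, a ubiquitin-like interferon product, stood at 127, 85.8 and 74.5 CPM in controls and 65.1, 31.4 and 61.5 in knockouts (-0.86, adjusted p = 0.224). Of 24 NF-kB and inflammatory genes, Lif fell, 20 had a negative difference and the median was -0.40. At an unadjusted p under 0.05, 8 of the 24 were lower and 1 was higher, where 5.84% of all genes were lower. Nfkbiz stood at 1337, 1006 and 1379 CPM and at 572, 859 and 652 (-0.83, adjusted p = 0.0732). In blood endothelial cells none of 30 passed, 27 had a negative difference and the median was -0.32. None of 9 STING pathway genes passed in lymphatic cells. Of 21 MHC class I genes none passed, and 19 had a negative difference with a median of -0.37. The nonclassical gene H2-Q4, which has close relatives in its cluster, stood at 295, 206 and 298 CPM and at 136, 140 and 149 (adjusted p = 0.0662). In the Lyve1 split, 13 of 22 MHC class I genes were higher without Lyve1 in every control and 1 was lower. Their median difference, without over with Lyve1, was 0.38 on the log2 scale. Cells without Lyve1 were scarce in the knockouts, and their part in the MHC class I result was not tested.

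Lists of vessel type held few calls as well. Gate genes were left out of these counts. Of 15 capillary-type genes, Reln rose and 10 had a positive difference, with a median of 0.22. None of 21 valve and collecting-vessel genes passed, with 14 negative and a median of -0.21. None of 7 Notch genes passed, all 7 were negative, and the median was -0.45. Dll4 stood at 96.2, 73.2 and 61.6 CPM and at 41.5, 40.0 and 49.2 (adjusted p = 0.210). None passed among 16 identity factors, 24 receptors, 14 junction genes, 20 matrix genes, 19 fatty acid genes, 15 trafficking genes, 14 blood endothelial genes and 9 sinusoidal genes.

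MHC class II genes, which present peptides to CD4 T cells, gave the most calls of any list, with 4 of 5 tested members lower and a median of -1.82. H2-Aa stood at 158, 127 and 139 CPM in controls and 41.5, 40.0 and 38.7 in knockouts (-1.82, SE 0.231, adjusted p = 0.00234). H2-Ab1, its beta chain partner, stood at 106, 144 and 118 CPM and at 53.3, 28.6 and 24.6 (-1.86, adjusted p = 0.0107). H2-Eb1 stood at 144, 137 and 103 CPM and at 74.0, 57.1 and 31.6 (-1.32, adjusted p = 0.0339). Cd74, the invariant chain, stood at 676, 423 and 349 CPM and at 68.1, 143 and 149 (-1.99, adjusted p = 0.0147). Every control was above every knockout in all 4 genes. The class II transactivator Ciita had 10, 4 and 0 UMIs in the controls and 1, 0 and 2 in the knockouts, too few to test.

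Class II genes are switched on together through an X box and a Y box before their start sites, so the 250 bases upstream of H2-Aa (chr17:34287824-34288073, minus strand) and H2-Eb1 (chr17:34305617-34305866, plus strand) are shown, from RefSeq on GRCm38.p6. Capitals mark GCAACT, a part of the X box, and then CTGATTGG, the Y box, searched on both strands and not overlapping each other.
H2-Aa: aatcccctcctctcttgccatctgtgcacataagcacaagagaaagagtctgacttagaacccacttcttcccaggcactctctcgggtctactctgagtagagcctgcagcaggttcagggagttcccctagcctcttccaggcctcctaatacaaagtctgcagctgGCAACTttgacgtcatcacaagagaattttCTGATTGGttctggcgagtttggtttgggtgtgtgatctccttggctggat
H2-Eb1: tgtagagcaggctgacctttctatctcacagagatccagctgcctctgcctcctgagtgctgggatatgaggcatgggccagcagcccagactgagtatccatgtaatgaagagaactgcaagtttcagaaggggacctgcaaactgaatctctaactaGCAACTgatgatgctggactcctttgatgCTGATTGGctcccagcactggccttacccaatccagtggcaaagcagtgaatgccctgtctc
The Y box begins 51 bases before the start in H2-Aa and 62 in H2-Eb1, and the X box part 81 and 91. Of 32851 promoters of the same length, 3.83% hold the Y box letters, 9.01% the X box letters and 0.341% both. A match is a run of letters, not a measured binding site.

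In control 2 the class II values rested on few cells and went with leukocyte transcripts. H2-Aa had a UMI in 28 of 49, 25 of 134 and 13 of 32 lymphatic cells of the controls. In the knockouts it did in 5 of 26, 5 of 25 and 10 of 41. The highest cell of control 1 held 13 of 117 H2-Aa UMIs. In control 2, the highest cell for each gene held 103 of 162 H2-Aa UMIs, 101 of 183 of H2-Ab1, 110 of 174 of H2-Eb1 and 280 of 538 of Cd74. All 10 UMIs of Xcr1, a marker of cross-presenting dendritic cells, came from 1 cell, also of control 2. Ptprc was found in 4, 24 and 2 lymphatic cells of the controls and in 2, 3 and 1 of the knockouts. With all cells, H2-Aa stood at 147, 120 and 127 CPM of the plain lymphatic sum, without TMM scaling, in controls. Without the cells with Ptprc, it stood at 166, 40.9 and 138 in controls and at 18.6, 43.7 and 36.9 in knockouts. Of the controls, only control 2 fell. Control 2 then lay within the knockout range, and the same held for H2-Eb1 (36.2 against 31.6 to 65.0) and for Cd74 (138 against 27.9 to 148). Adjusted p-values without cells with Ptprc were 0.366 for H2-Aa, 0.0501 for H2-Ab1, 0.626 for H2-Eb1 and 0.512 for Cd74. Control 1 and control 3 remained above all knockouts for each of the 4 genes. For H2-Ab1 every control stayed above every knockout, at 105, 56.7 and 117 against 49.5, 28.1 and 24.6.

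Removing the highest cell of every library instead left H2-Aa at 137, 45.1 and 91.5 CPM of the plain sum in controls and at 18.0, 21.3 and 30.6 in knockouts, again without overlap. With cells thinned to 1500 UMIs, Cd74 was found in 19 of 49, 18 of 129 and 9 of 32 control lymphatic cells, and in 0 of 26, 5 of 25 and 5 of 41 knockout lymphatic cells. The share was 11.8% to 18.3% in blood endothelial cells and 6.18% to 9.93% in T cells, which hold little of it. Control 1, control 3 and knockout 2 lay above the range of both cell types, control 2 and knockout 3 lay within that of blood endothelium, and knockout 2 was above control 2, so the groups overlapped.

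**Figure D5:**
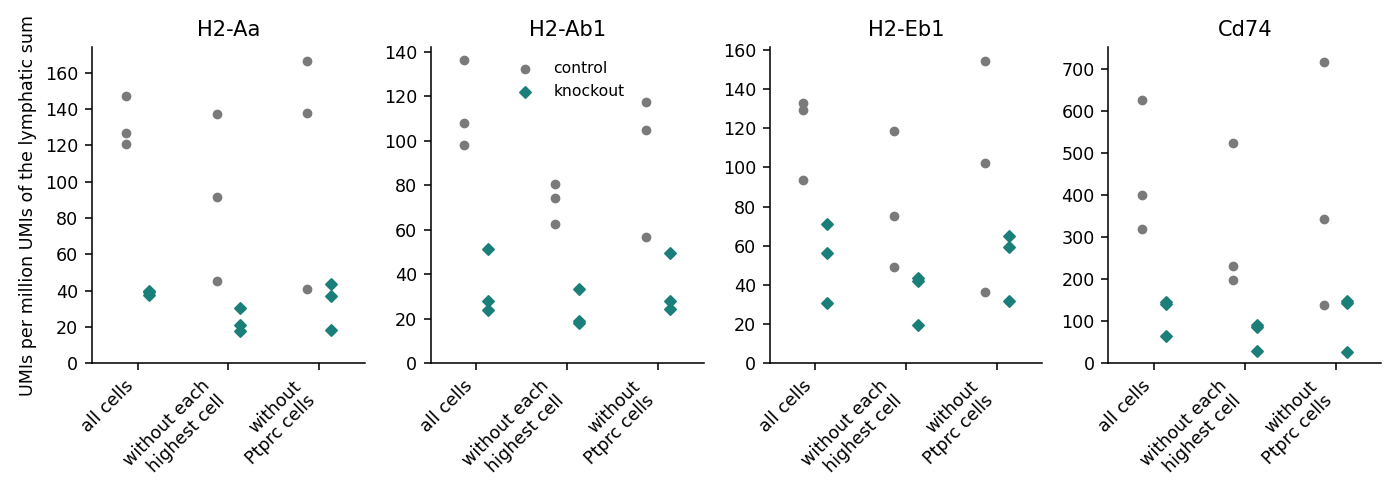
Levels of 4 MHC class II genes in CPM of the plain lymphatic sum (without TMM scaling), 1 circle per control liver and 1 diamond per knockout liver, with all cells, without the highest cell of each library for that gene, and without cells bearing a Ptprc UMI. With all cells the groups are apart in each panel; without Ptprc-bearing cells 1 control, control 2, falls among the knockouts for H2-Aa, H2-Eb1 and Cd74.

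Transcripts of other cells were present at levels that differed between single livers. In the lymphatic sums, 9 B and plasma cell markers came to 37.5 to 1234 CPM of the plain sum in controls and 36.0 to 114 in knockouts, mostly Igkc of control 1, with Mzb1 at 0. The 8 cholangiocyte markers came to 5.02 to 1608 and 8.53 to 82.2, mostly Spp1. The 12 myeloid markers came to 32.6 to 387 and 41.1 to 123, with Adgre1 at 0, and the 10 T cell markers to 16.3 to 58.0 and 5.61 to 17.1. The 11 fibroblast and mural markers came to 183 to 732 and 34.1 to 683, the 8 hepatocyte markers to 84.1 to 555 and 85.3 to 160, and the 8 NK cell markers to 0 to 35.7 and 0 to 11.2, with Gzmb at 0. The 10 mesothelial markers came to 302 to 457 and 342 to 765, nearly all Gpm6a, and the 8 platelet markers to 2.34 to 14.1 and 2.81 to 8.56, with Gp9, Ppbp and Tubb1 at 0. The ranges of the groups overlapped for every one of these lists. They did not for the 22 sinusoidal genes, of which Lyve1 and Flt4 had the most UMIs. These came to 2093 to 2742 CPM of the plain sum in controls and 3284 to 4360 in knockouts. The part of any of these lists in the genotype differences was not tested. Without cells with a Ptprc UMI, 31 of the 39 genes were still called.

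The same contrast in blood endothelial cells gave 0 calls among 12986 genes (669, or 5.15%, at an unadjusted p under 0.05, and 8 calls with DESeq2). H2-Aa differed there by -0.28, Cd93 by 0.28, Reln by -2.09 and Ank by 0.01, none past the threshold. A test of whether the genotype effect differed between lymphatic and blood endothelium gave 0 calls among 11839 genes (615, or 5.19%, at an unadjusted p under 0.05, and 12 calls with DESeq2). The lymphatic changes are therefore not shown to be particular to these cells. The 5 genes of smallest p in that test all had an adjusted p of 0.235. Among them, Palmd, an actin-linked palmdelphin gene, stood at 23.2, 20.6 and 19.4 CPM in control lymphatic cells and 0, 2.77 and 1.71 in knockout ones, and at 38.4 to 69.7 in all blood endothelial sums. Hbegf, an EGF receptor ligand, stood at 116, 148 and 263 CPM and at 22.8, 74.7 and 70.0 in lymphatic cells, and at 178 to 394 in blood endothelial sums. The other 3 were Cd93 (-2.65), H2-Aa (-1.64) and Onecut2, which had 0 UMIs in the lymphatic cells of every knockout and 1.36, 23.01 and 48.6 CPM in those of the controls. Onecut2 rested on 50 lymphatic UMIs in all. The 8 cholangiocyte markers came to 5.02, 585 and 1608 CPM without TMM scaling in the same control sums. They came to 8.53, 33.7 and 82.2 in the knockout sums, and the part of cholangiocyte transcripts was not tested.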

How the data were processed

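The deposited matrices hold raw counts of UMIs per gene and cell barcode, 1 library per mouse, made with the 10x Genomics Chromium 3′ kit per the labels. The submitters' processing notes name Cell Ranger 7.1.0, Seurat 4.1.1 and mm10. The annotation release is not given in the sources used here, so coordinates came from GENCODE on GRCm38, matched by Ensembl identifier (445 of 450). The members, gene lists and tests were chosen with earlier results of these data known.

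Raw counts of gated cells were summed per mouse and tested with edgeR 4.0.16 in R 4.3.3 (TMM, filterByExpr, robust quasi-likelihood test, Benjamini-Hochberg adjustment over all genes, threshold 0.05). CPM values use TMM library sizes of the 12 sums (lymphatic against blood) or the 6 lymphatic sums (knockout against control). Intervals of ratios are exact, at 95%. Titles call the libraries biological replicates. Shares were compared by exact permutation tests over mice. Named genes were the 12 higher and 10 lower of largest difference against blood, the 10 each way of smallest p between genotypes without overlap (mean log2 CPM of at least 5), the 5 of smallest p in the interaction, and up to 4 of smallest p per list; further genes, those of the Lyve1 split included, were chosen after their values were seen. Doublets were left in and removed as an alternative with Scrublet (scanpy 1.11.5). Its automatic threshold called no cell in 2 libraries, so a common score of 0.245 was used, which 3 lymphatic cells exceeded. Without them, 30 of the 39 genes called between genotypes were still called, and all 39 had the same direction. On simulated data for 6331 genes between genotypes, edgeR recovered 50% of genes moved by a log2 difference of 1 and 95% of those moved by 2, with 6 false calls. Some genes that met these rules are not reported here.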

Additional observations from a re-analysis of the deposited data

How the results depend on the processing

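Counts of calls moved with the settings as follows. For lymphatic against blood endothelium (3986 calls), the Prox1 gate gave 2374 and cells thinned to 1500 UMIs gave 1700, the latter with 6015 genes tested; leaving out 1 library gave 3409 to 3669. For knockout against control in lymphatic cells (39 calls), no filter on low counts gave 198, DESeq2 71, the Prox1 gate 0, thinned cells 10 (of 1168 genes), cells with a Lyve1 UMI only 4, and leaving out 1 library 7 to 70. In blood endothelium (0 calls), DESeq2 gave 8, and leaving out 1 library 0 to 3, the 3 without control 3. For the difference of the genotype effect (0 calls), no filter gave 151, DESeq2 12, no cells with Ptprc 1, and leaving out 1 library 0 to 2, the 2 without control 1 and without knockout 2. The cause of these moves was not tested. Of the named genes, Sting1 reversed, with -0.70 to 0.076 on the log2 scale over the runs that left out 1 library, the latter without knockout 3.

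Replicate numbers in the titles were shared between groups. Deviations of same-numbered lymphatic sums correlated at 0.0541, 0.143 and 0.104, not all over 0.1, so the numbers were not taken to pair the mice, although each sample correlated best with its own number. The replicate block gave 167 calls between genotypes, 38 of the 39 among them, and 0 in blood endothelium. For the shares of cells, permutation within same-numbered pairs gave exact p-values of 0.5 (endothelial cells) and 0.25 (all cells, the smallest possible). Leaving out 1 library gave share differences of -12.9 to -5.05 and of -0.631 to -0.192 percentage points. Depth limits the genotype comparison, since 25 to 134 lymphatic cells stand behind each mouse.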
